A study of Caenorhabditis elegans with 2 samples.

Results

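Genes of fatty acid and lipid metabolism were examined for binding of a GFP-tagged transcription factor in larvae of the nematode Caenorhabditis elegans. The genes were the protein-coding genes of the WBcel235 annotation whose symbols begin with acs-, acl-, fat-, lipl-, acdh- or acox-, together with sbp-1, a rule on names alone. There were 71 such genes among 19973 protein-coding genes, namely 22 acs-, 13 acl-, 7 fat-, 8 lipl-, 13 acdh- and 7 acox- genes and sbp-1. The fat- and acl- genes and sbp-1 (21 genes) are called synthesis genes here, and the lipl-, acdh- and acox- genes (28 genes) breakdown genes. The 22 acs- genes are called activation genes, since activated fatty acids enter both directions.

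Binding was measured by ChIP-seq, in which DNA fragments held by a protein are pulled down with an antibody and sequenced. There was 1 group of samples with 2 biological replicates, each of whole L3 larvae with males and females pooled. The worms were of strain OP355, which carries the mutant allele unc-119(tm4063) III and the integrated transgene wgIs355. The labels disagree on the target, since the antibody and strain entries name mdl-1 and the free-text entry names eGFP-ZK337.2, so the protein is called the tagged factor. No strain, stage or treatment was contrasted, and every comparison below is between genes or regions. A whole larva holds many tissues, so that strong binding in a few cells and weak binding in many cannot be told apart, and no value can be assigned to the intestine, the main fat store of the worm.

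A summit is the base of highest signal in a called region, and a gene was scored when a summit lay from 2000 bp upstream to 200 bp downstream of its 5′ end. The reproducible list, thresholded by irreproducible discovery rate (IDR), held 1015 regions, the relaxed list called on both replicates together (pooled) held 30000, and the lists of replicate 1 and replicate 2 held 15898 and 30000. The signal of a region is the authors' peak caller score, with no stated scale, and it ran from 25.9 to 539 in the IDR list and from 4.82 to 539 in the pooled list. It was used only to rank regions within a list, and rank 1 is the highest. Signals of replicate 1 are on a lower scale (median 3.24) than those of replicate 2 (median 5.99). Sequencing depth, by which values could have been weighted, was not given in the sources used here.

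Worms store fat mainly as triglyceride in lipid droplets. Lipases release fatty acids from it, acyl-CoA synthetases (acs-) join them to coenzyme A, and the activated acids are either shortened by β-oxidation or built into new lipids. Acyl-CoA dehydrogenases (acdh-) and acyl-CoA oxidases (acox-) carry out the opening step of β-oxidation in mitochondria and peroxisomes respectively, the lipl- genes encode lysosomal acid lipases, desaturases (fat-) place double bonds, and acyltransferases (acl-) attach acyl chains to glycerol backbones. SBP-1, the worm SREBP, is a transcriptional activator of fat synthesis genes. Basic helix-loop-helix proteins of the Myc, Max and Mad families, to which MDL-1 belongs, bind the E-box CACGTG, and in C. elegans the E-box proteins MXL-3 and HLH-30 are known to act on lipl- genes.

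Of the 71 genes, 10 had an IDR summit in the window, and 5 of these regions held CACGTG within 100 bp of the summit. The sequence around each of these E-boxes is shown so that the boxes, their flanks and their places can be compared between genes. Each is read from assembly WBcel235 (ce11) on the strand of the lipid gene, and capitals mark the E-box.
lipl-2, chrV:9790091-9790166, plus strand: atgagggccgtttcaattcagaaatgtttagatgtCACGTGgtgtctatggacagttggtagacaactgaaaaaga
acdh-9, chrII:848616-848691, minus strand: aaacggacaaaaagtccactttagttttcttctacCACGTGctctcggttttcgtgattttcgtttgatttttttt
acl-4, chrX:2071491-2071566, minus strand: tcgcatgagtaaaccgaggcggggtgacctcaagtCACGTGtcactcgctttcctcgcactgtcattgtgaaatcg
acs-11, chrII:4740176-4740251, plus strand: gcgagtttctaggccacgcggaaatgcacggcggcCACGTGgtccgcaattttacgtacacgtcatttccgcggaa
acdh-10, chrX:17216426-17216501, minus strand: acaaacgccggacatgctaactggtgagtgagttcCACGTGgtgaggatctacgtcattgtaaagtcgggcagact
The E-box lay 5 bp from the summit at acs-11, 23 bp at acl-4, 33 bp at acdh-9, 78 bp at lipl-2 and 79 bp at acdh-10, counted to the nearer of its central bases. None of the 5 carried the longer palindrome TCACGTGA, which contains CACGTG.

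The other 5 IDR regions, at acs-2, acs-4, acs-6, acl-1 and fat-1, had no CACGTG within 100 bp. At acs-2, the strongest of them, the sequence around the summit held the related E-box CATGTG, read here from the opposite strand as CACATG and shown in capitals. At acs-4 none of the 8 motifs searched was found within 100 bp, and its summit sequence is shown for contrast with no capitals.
acs-2, chrV:15566682-15566762, plus strand: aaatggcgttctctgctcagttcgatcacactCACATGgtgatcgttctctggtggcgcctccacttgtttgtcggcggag
acs-4, chrIII:7165896-7165976, plus strand: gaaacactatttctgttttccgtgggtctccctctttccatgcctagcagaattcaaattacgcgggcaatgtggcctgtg

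Regions of the IDR list lay at lipid genes of all 3 classes, and the share of the 71 genes with a summit was above that of all protein-coding genes in each list. In the IDR list, 10 of 71 lipid genes had a summit (14.1%, exact Clopper-Pearson 95% interval 6.97 to 24.4), beside 3.57% of all 19973 genes. Among the 5000 pooled regions of highest signal, 26 of 71 genes had one (36.6%, 25.5 to 48.9), beside 14.3% of all genes. In the full pooled list 54 of 71 genes had one (76.1%, 64.5 to 85.4), beside 53.6%. None of these 3 intervals reached down to the share of all genes. The replicates taken alone gave 35 of 71 genes (49.3%, 37.2 to 61.4) beside 32.8% for replicate 1, and 54 of 71 (76.1%, 64.5 to 85.4) beside 53.8% for replicate 2. The intervals cover counting error over genes alone, and no test was made. The gene set was chosen with earlier results of these data known.

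The IDR count depended on how far upstream the window reached. With a window of 1000 bp upstream, 3 of 71 lipid genes (acs-2, acdh-9 and acl-1) had an IDR summit beside 2.52% of all genes. Of the 10 IDR summits, 7 lay more than 1000 bp upstream of the lipid gene (70.0%, 34.8 to 93.3), whereas 234 of the 749 pairs of a gene and an IDR summit over all genes did so (31.2%, 27.9 to 34.7). The median IDR summit lay at -1340 bp for lipid genes and at -479 bp for all genes, negative values being upstream. In the pooled list the difference in position was absent from the counts, with 33 of 82 summits beyond 1000 bp (40.2%, 29.6 to 51.7) beside 40.1% for all genes.

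**Figure D1:**
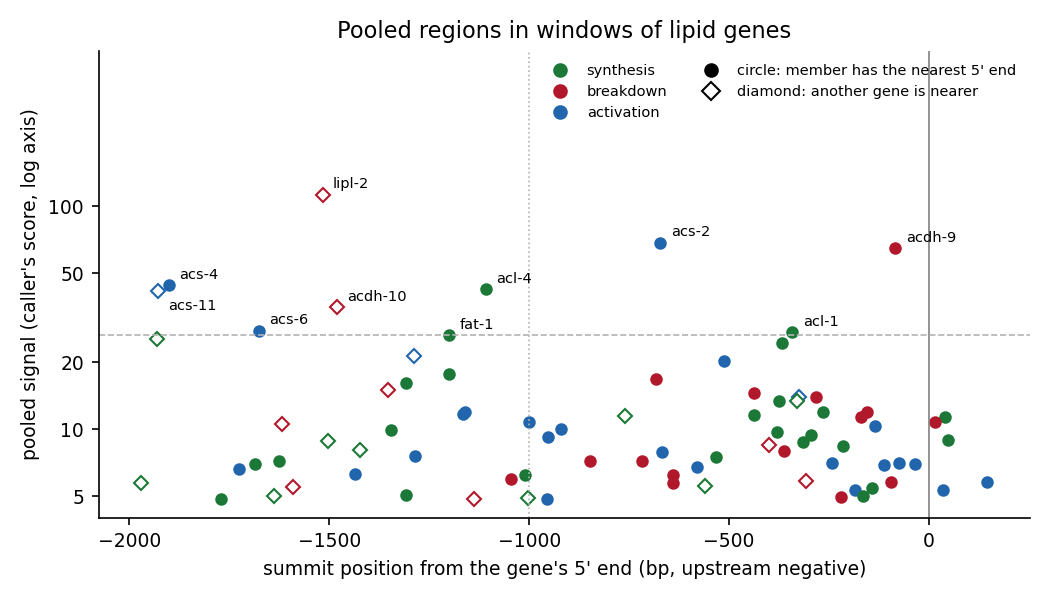
Signal of each of the 82 pooled regions whose summit lay in the window of a lipid gene (vertical log axis, caller's score) against the summit's distance from the 5′ end of that gene in bp. Colours give the class, open diamonds mark regions nearer to the 5′ end of another gene, the dotted line stands at 1000 bp upstream, and the dashed line at 26.5, the lowest signal of the 10 named IDR regions, of which 7 lie left of the dotted line.

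Among the lipases, 1 of 8 lipl- genes had an IDR summit (12.5%, 0.316 to 52.7), beside 3.57% of all genes, a share inside the interval. The region at lipl-2 was the strongest at any lipid gene, at chrV:9789947-9790131, with a pooled signal of 113 (rank 55). It had a signal of 21.2 in replicate 1 (rank 138) and 90.0 in replicate 2 (rank 50), so that it ranked high in both. Its summit lay in intergenic sequence 1517 bp upstream of lipl-2, but only 343 bp from the 5′ end of ztf-7, and the E-box closed the region at its right edge. Counting each region for its nearest gene alone, the highest signal left to lipl-2 was 7.98. A weaker region with a summit 94 bp upstream of lipl-2 held another CACGTG, 57 bp from its summit, with a pooled signal of 5.80 (rank 22664).

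The other lipl- genes had weak or no listed regions. The highest pooled signal was 15 at lipl-8 (rank 2627), a region absent from the replicate 1 list, with 13.6 in replicate 2 and nearer to the 5′ end of nspa-10. At lipl-3 it was 10.8, at lipl-4 10.6, at lipl-7 7.21 and at lipl-6 4.88, while lipl-5 had a region in the replicate 2 list alone (4.22) and lipl-1 had none in any list. CACGTG was present in the windows of 5 of the 8 lipl- genes, at 7 sites, although the windows of 30.4% of all genes also held it. Besides the pair at lipl-2, no site lay within 100 bp of a pooled summit. The gap to the nearest pooled summit was 224 bp and 390 bp for the sites of lipl-7, 443 bp at lipl-3, 2250 bp at lipl-5 and 2689 bp at lipl-1. Most E-boxes in lipl- windows therefore had no pooled summit within 100 bp, as was the case for most E-boxes in windows of all genes. The share with one was 2 of 7 (28.6%), beside 11.4% over all genes.

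Among the acyl-CoA dehydrogenases, 2 of 13 acdh- genes had an IDR summit (15.4%, 1.92 to 45.4), beside 3.57% of all genes, a share inside the interval. Both regions held CACGTG. At acdh-9 the region chrII:848505-848868 had a pooled signal of 65.1 (rank 205), with 23.4 in replicate 1 (rank 109) and 41.4 in replicate 2 (rank 293). The summit lay 84 bp upstream of the gene, the closest of the 10 IDR summits to its gene, with the E-box between summit and 5′ end. GAGAGA and CTGCGTC also lay within 100 bp of the summit.

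At acdh-10, whose product is of the medium-chain type, the region chrX:17216202-17216565 had a pooled signal of 35.3 (rank 619), with 14.8 in replicate 1 (rank 294) and 22.8 in replicate 2 (rank 833). It lay 1481 bp upstream, inside an intron of the neighbouring acdh-7, another medium-chain dehydrogenase gene, and 721 bp from that gene's 5′ end. A weaker region 169 bp upstream of acdh-10 had a signal of 11.4, and one 155 bp upstream of acdh-7 had 11.9. Of the remaining dehydrogenase genes, acdh-1, which takes part in the breakdown of propionate, had 7.21 in the pooled list, 2.96 in replicate 1 and 4.91 in replicate 2. Pooled signals at acdh-6, acdh-11, acdh-12 and acdh-13 lay between 5.52 and 6.23. In the pooled list 5 acdh- genes had no summit, and acdh-8 had none in any list. The pooled share of acdh- genes with a summit was 61.5% (31.6 to 86.1), beside 53.6% of all genes.

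No acyl-CoA oxidase gene had an IDR summit (0 of 7, upper 95% limit 41.0%), beside 3.57% of all genes, a share inside the interval. Pooled summits were listed at 3 of 7 (42.9%, 9.90 to 81.6), beside 53.6% of all genes, which also lies inside the interval. The signal was 16.8 at acox-1.1 (rank 2129), 14.6 at acox-3 (rank 2783) and 13.9 at acox-1.6 (rank 3100). The worm's acox- genes are known for peroxisomal shortening of ascaroside pheromone side chains. At acox-1.1 the region was listed in both replicates, with 5.67 in replicate 1 and 13.6 in replicate 2. At acox-3 and acox-1.6 it was listed in replicate 2 alone, with 12.5 and 9.53. The genes acox-1.2 and acox-1.4, which stand in a row with acox-1.1 and acox-1.3 on the same strand, had no summit in any list.

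Among the acyl-CoA synthetases, 4 of 22 acs- genes had an IDR summit (18.2%, 5.19 to 40.3), beside 3.57% of all genes, and 1 of those regions held CACGTG. The strongest lay at acs-2, a mitochondrial acyl-CoA synthetase gene known to be induced by fasting through NHR-49. Its region chrV:15566540-15566903 had a pooled signal of 68.8 (rank 179), with 21.8 in replicate 1 (rank 131) and 51.7 in replicate 2 (rank 184), and its summit lay 672 bp upstream with no nearer gene. The window of acs-2 did hold a CACGTG, 49 bp downstream of the 5′ end, but 721 bp from that summit.

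At acs-4, known for its part in protein myristoylation in the germline, the region chrIII:7165754-7166117 had a pooled signal of 44.5 (rank 419), with 9.04 in replicate 1 (rank 749) and 37.2 in replicate 2 (rank 359). At acs-11 the region chrII:4740026-4740389 had 41.8 (rank 469), with 7.25 in replicate 1 (rank 1229) and 36.9 in replicate 2 (rank 363). At acs-6 the region chrII:7060172-7060535 had 27.7 (rank 909) and 26.5 in replicate 2 (rank 639), and it was not in the replicate 1 list. These 3 summits were the farthest from their genes among the 10, at 1902, 1929 and 1676 bp upstream. The summit at acs-11 was 204 bp from the 5′ end of eas-1, while acs-4 and acs-6 had the nearest 5′ end to theirs. A second region at acs-11, 513 bp upstream, had a signal of 20.2.

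The remaining acs- genes had lower signals. At acs-19, an acetyl-CoA synthetase gene, the highest pooled signal was 21.3 (rank 1429), with 8.05 in replicate 1 and 14.6 in replicate 2, at a summit 233 bp from the 5′ end of brc-1. At acs-12 it was 13.9, in a region not listed in replicate 1 and nearer to amx-3. Of the fatty acid transport protein homologues, acs-22 had 9.97 and acs-20 had no pooled summit. The genes acs-10, acs-18 and acs-24 had no summit in any list.

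Among the acyltransferases, 2 of 13 acl- genes had an IDR summit (15.4%, 1.92 to 45.4), beside 3.57% of all genes, a share inside the interval. The first was acl-4, whose product acylates glycerol phosphate at the endoplasmic reticulum, the opening step of phospholipid and triglyceride synthesis. Its region chrX:2071370-2071733, 1108 bp upstream, had a pooled signal of 42.4 (rank 455) and 35.7 in replicate 2 (rank 397), against 4.30 in replicate 1 (rank 4458). The replicates thus placed it very differently, and the highest replicate 1 signal in the acl-4 window was 8.75, at another region. A second pooled region 368 bp upstream of acl-4 had a signal of 24.5 (rank 1130), below the lowest signal of the IDR list, 25.9.

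The second was acl-1, which encodes a lysophosphatidic acid acyltransferase. Its region chrX:15849361-15849724, 342 bp upstream, had a pooled signal of 27.3 (rank 930), with 5.08 in replicate 1 (rank 2998) and 22.1 in replicate 2 (rank 877). At its relative acl-2 the highest pooled signal was 12 (rank 4351), in a region absent from replicate 1 and at 11.2 in replicate 2. The window of acl-11 held a region of 25.5 (rank 1041), close below the IDR list, which was not in the replicate 1 list and lay 59 bp from the 5′ end of mfsd-13.1. At acl-12 the order of the replicates was turned, with 13.4 pooled, 5.81 in replicate 1 and no region in replicate 2. The mitochondrial glycerol phosphate acyltransferase gene acl-6 had 5.47 despite 4 CACGTG sites in its window, the nearest of them 359 bp from a pooled summit. At acl-5, the close relative of acl-4, no list held a summit.

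Among the desaturases, each of the 7 fat- genes had a pooled summit (lower 95% limit 59.0%), beside 53.6% of all genes. The only pooled regions of fat-4, fat-6 and fat-7 lay nearer to the 5′ ends of T13F2.2, ZK822.9 and F10D2.10. An IDR summit was found at 1 of the 7 (14.3%, 0.361 to 57.9), beside 3.57% of all genes. At fat-1, which adds a further double bond to linoleic acid, the region chrIV:13314262-13314625 had a pooled signal of 26.5 (rank 979). It had 16.6 in replicate 1 (rank 237) and 18.4 in replicate 2 (rank 1199), so that it ranked higher in replicate 1. At fat-2, which makes linoleic acid from oleic acid and lies downstream of fat-1 on the same strand, the signal was 17.7 (rank 1932), with 9.47 in replicate 1 (rank 686) and 9.83 in replicate 2 (rank 4558). Both summits lay 1200 bp upstream of their genes, and both ranked higher in replicate 1 than in replicate 2. The fat-1 window held 3 CACGTG sites, of which the nearest was 151 bp from a pooled summit and 913 bp from the IDR summit.

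At fat-3 and fat-4, which act on the way to longer polyunsaturated fatty acids, pooled signals were below that of fat-2. The region assigned to fat-3 had a pooled signal of 16.1, near the 17.7 of fat-2, with 4.28 in replicate 1 and 14.1 in replicate 2 (rank 2018, above fat-2), and lay in an intron of the neighbouring gene fat-4. The highest signal of fat-4 itself was 8.89. Of the 3 genes that make monounsaturated fatty acids, fat-6 had 13.4, fat-5 8.75 and fat-7 5.75, and the fat-6 region lay in an exon of ZK822.9, 70 bp from its 5′ end. The regulator sbp-1 had a single pooled region of 6.26 (rank 19743), 1011 bp upstream, which neither replicate list contained.

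**Figure D2:**
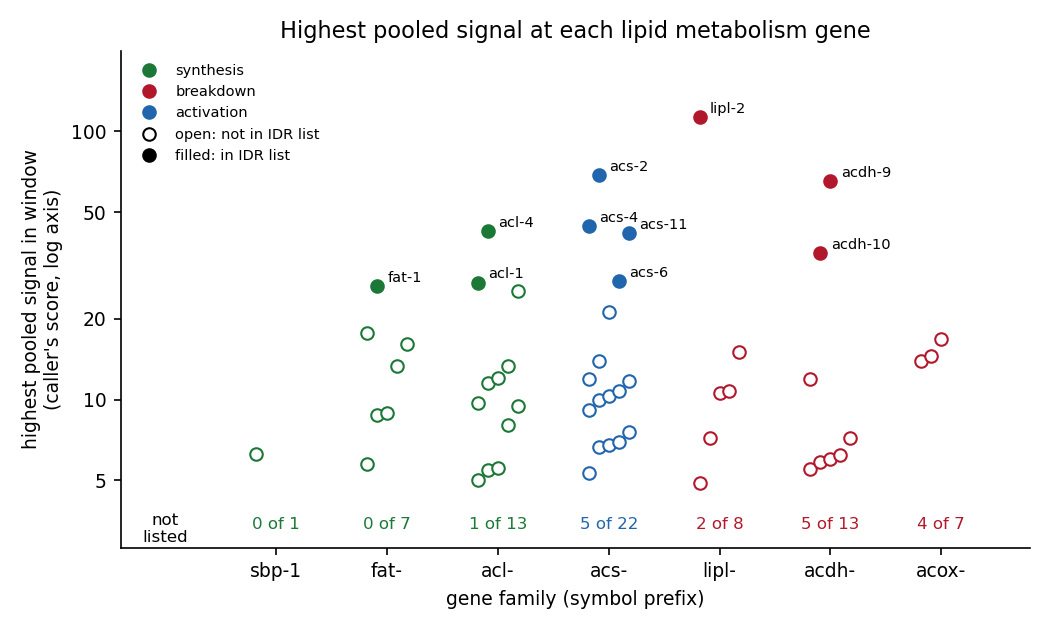
Highest pooled signal in the window of each lipid gene (points, log axis, caller's score) by gene family, with the number of genes without a pooled summit along the bottom. Filled points, with their names, are the 10 genes with an IDR summit, which range from 26.5 at fat-1 to 113 at lipl-2, and the fat- family alone among the 6 families has no unlisted gene. Over all genes, 53.6% had a pooled summit.

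The 2 replicates ordered these regions differently. Of the 10 IDR regions at lipid genes, 9 were listed in replicate 1 and 10 in replicate 2, and 6 and 9 of them stood among the 1015 highest of the respective replicate. Signal was higher in replicate 2 at each of the 9 regions with both values, as were the signals of the whole list. By rank, acdh-9, acdh-10, fat-1 and acs-2 stood higher in replicate 1, and lipl-2, acs-4, acs-11, acl-4 and acl-1 higher in replicate 2. Using only the 1015 highest regions of 1 replicate, 10 lipid genes had a summit in replicate 2 and 9 in replicate 1, beside 3.45% and 3.42% of all genes. These were not all the genes of the IDR list. In replicate 1, fat-2 and acs-19 came in, acs-11, acs-6 and acl-1 dropped out, and acl-4 counted through another region. In replicate 2, acl-11 came in and fat-1 dropped out.

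**Figure D3:**
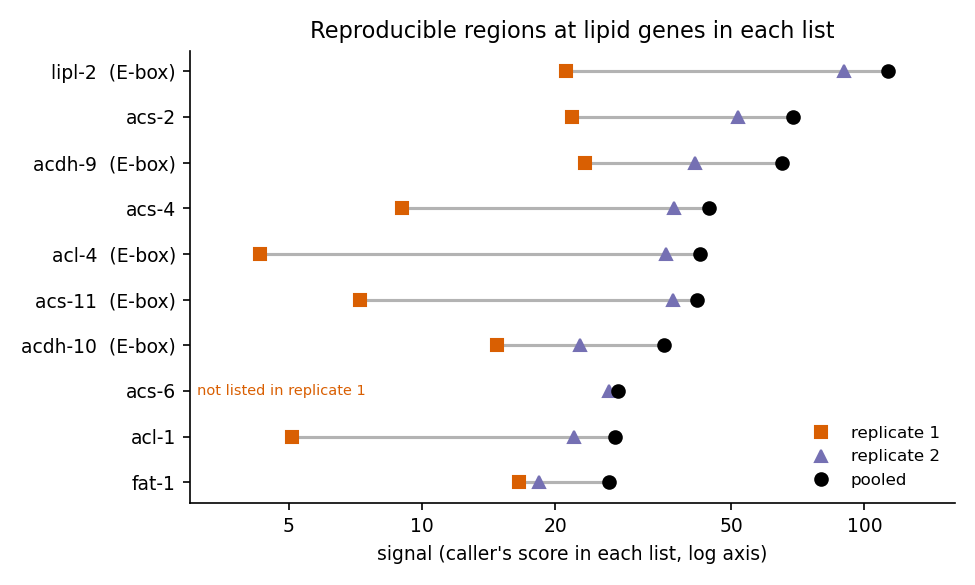
Signal of the 10 IDR regions at lipid genes in replicate 1 (squares), replicate 2 (triangles) and the pooled list (circles), on a log axis, with regions holding an E-box CACGTG within 100 bp of the summit marked beside the gene name. Replicate 1 lies lowest at each region it lists, from 4.30 at acl-4 to 23.4 at acdh-9, and acs-6 has no replicate 1 value.

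Shares of synthesis and breakdown genes with a summit had overlapping intervals in each list. In the IDR list, 3 of 21 synthesis genes (14.3%, 3.05 to 36.3) and 3 of 28 breakdown genes (10.7%, 2.27 to 28.2) had a summit, beside 3.57% of all genes, a share inside both intervals. With the nearest gene alone it was 3 of 21 and 1 of 28, beside 2.55% of all genes. Among the 5000 highest pooled regions it was 10 of 21 (47.6%, 25.7 to 70.2) and 8 of 28 (28.6%, 13.2 to 48.7), beside 14.3%. In the pooled list it was 20 of 21 (95.2%, 76.2 to 99.9) and 17 of 28 (60.7%, 40.6 to 78.5), beside 53.6%. The pooled share of breakdown genes was thus near that of all genes, which lay inside its interval. The difference between synthesis and breakdown genes was not tested. For replicate 1 the counts were 13 of 21 (61.9%) and 10 of 28 (35.7%), and for replicate 2 they were 17 of 21 (81.0%) and 21 of 28 (75.0%), so the gap was wide in one replicate and narrow in the other. The shares of all genes were 32.8% and 53.8%, of which the former is near that of breakdown genes in replicate 1. In the pooled list, giving each summit to its nearest gene alone left 13 of 21 and 13 of 28, beside 40.2% of all genes.

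Entering genes without a pooled summit at 0, the median of the highest pooled signal was 9.71 over synthesis genes, 5.91 over breakdown genes, 9.57 over activation genes and 5.2 over all genes. Over genes with a summit the medians were 10.6, 10.8, 10.8 and 8.17, so that the classes stood apart by how many genes were listed and not by the signal of those listed. Windows of synthesis genes held 1.57 pooled regions on average, those of breakdown genes 0.821, those of activation genes 1.18 and those of all genes 0.748. Of the 71 lipid genes, 17 had no pooled region, 32 had 1, 16 had 2 and 6 had 3 or more. Over all 19973 genes these counts were 9277, 7281, 2683 and 732.

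**Figure D4:**
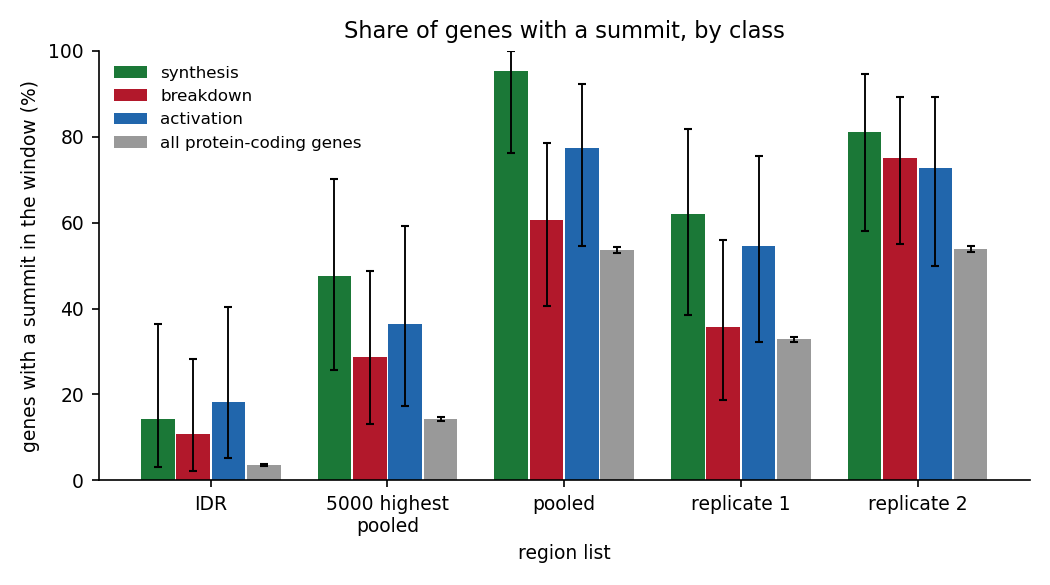
Percentage of synthesis (n = 21), breakdown (n = 28), activation (n = 22) and all 19973 protein-coding genes with a summit in the window, for each list, with exact 95% intervals as error bars. The bars of the 3 lipid classes stand above that of all genes in each list, and their intervals overlap each other. The share of all genes lies inside the interval of breakdown genes in every list but replicate 2. It also lies inside that of synthesis genes in the IDR list and of activation genes in both replicates. The gap between synthesis (95.2%) and breakdown (60.7%) in the pooled list shrinks to 81.0% and 75.0% in replicate 2.

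The E-box was found at some of the IDR regions of the lipid genes and at few of the regions ranked below them. It was present at lipl-2, the strongest, and absent from acs-2 and acs-4, with signals of 68.8 and 44.5. Within 100 bp of the summit, on both strands, CACGTG was present at 5 of the 10 IDR regions of lipid genes (50%, 18.7 to 81.3), beside 157 of 548 IDR regions in windows of any gene (28.6%, 24.9 to 32.6), a share inside the lipid interval. The 3 IDR regions nearer to another gene, in the windows of lipl-2, acs-11 and acdh-10, each held CACGTG. Without them it was 2 of 7 (28.6%, 3.67 to 71), beside 28.7% of IDR regions assigned in the same way over all genes, a setting added after the values were seen. By gene, 5 of 71 had an IDR region with CACGTG (7.04%, 2.33 to 15.7), beside 1.01% of all genes. Among the pooled regions ranked after the IDR list down to 5000, 0 of 21 at lipid genes had one (upper limit 16.1%), beside 9.02% at all genes, and after 5000 it was 2 of 51 (3.92%) beside 3.82%. Those last 2 were the acl-7 region of 7.48 and the lipl-2 region of 5.80, acl-7 being an acyltransferase gene of ether lipid synthesis. Over all 82 regions it was 7 (8.54%, 3.50 to 16.8), beside 5.77% of 12027 regions in windows of any gene, and 4.27% in flanking windows of the same size 500 bp to either side.

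By class, CACGTG was present at 3 of 3 IDR regions of breakdown genes, 1 of 3 of synthesis genes and 1 of 4 of activation genes, the breakdown regions of lipl-2 and acdh-10 being nearer to another gene. Over all pooled regions it was 4 of 23 at breakdown genes (17.4%, 4.95 to 38.8), 2 of 33 at synthesis genes (6.06%, 0.743 to 20.2) and 1 of 26 at activation genes (3.85%, 0.0973 to 19.6). These intervals overlapped. With the search narrowed to 50 bp the E-boxes of lipl-2 and acdh-10 fell outside, and the share over all 82 regions was 4.88%.

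Most E-boxes in the windows had no pooled summit within 100 bp. The windows of 24 of 71 lipid genes held CACGTG (33.8%, 23.0 to 46.0), beside 30.4% of all genes, so that the letters were about as common as elsewhere. Of the 34 sites at lipid genes, 5 lay within 100 bp of an IDR summit (14.7%) and 7 of a pooled summit (20.6%), beside 2.66% and 11.4% of the 6458 sites in windows of all genes. Sites farther than that from a pooled summit included the 4 of acl-6, the 3 of fat-1 and those of acdh-2, acdh-8 and acox-1.2, the last 3 with gaps of 2997, 3248 and 2619 bp. One of the fat-1 sites lay 76 bp from a replicate 2 summit.

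**Figure D5:**
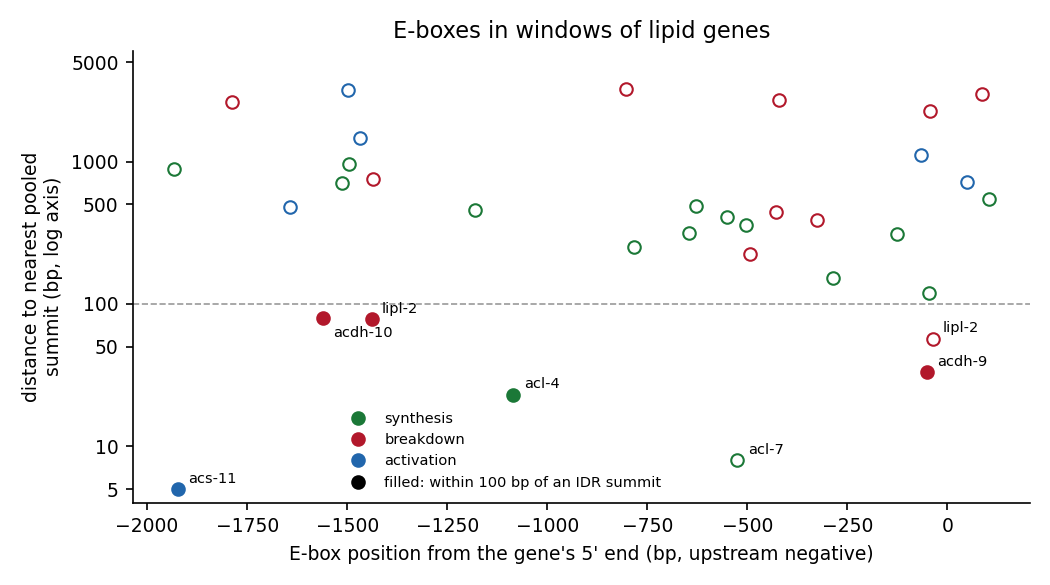
Distance in bp from each of the 34 E-boxes in windows of lipid genes to the nearest pooled summit (log axis) against the position of the E-box from the 5′ end of the gene. Filled points are within 100 bp of an IDR summit, the dashed line stands at 100 bp, and 27 of the 34 sites lie above it.

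Other motifs at the 82 regions were searched for on both strands in the same 100 bp. GAGAGA was found at 27 of 82 regions (32.9%, 22.9 to 44.2), beside 17.7% of regions at all genes, and TGATAA, a sequence of the type bound by GATA factors such as the intestinal ELT-2, at 27 of 82 (32.9%, 22.9 to 44.2), beside 20%. In the flanks of the lipid regions the shares were 7.32% for GAGAGA and 15.2% for TGATAA, beside 10.1% and 19.2% in the flanks of regions at all genes. In the IDR list GAGAGA was as common at lipid genes (50%) as at all genes (54.9%), and between the IDR list and rank 5000 it was at 52.4% beside 29.8%. TGATAA was at 3 of 10 IDR regions of lipid genes beside 17.0% at all genes, at 28.6% beside 21.7% between the IDR list and rank 5000, and at 35.3% beside 19.9% after rank 5000.

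By class, GAGAGA was present at 15 of 33 regions of synthesis genes (45.5%, 28.1 to 63.6), 8 of 23 of breakdown genes (34.8%, 16.4 to 57.3) and 4 of 26 of activation genes (15.4%, 4.36 to 34.9). TGATAA was present at 13 of 33, 8 of 23 and 6 of 26. CATGTG was present at 9 of 82 regions (11% beside 8.61%). It was at 4 of the 10 IDR regions, those of lipl-2, acs-2, acs-6 and acs-11. The interval of this IDR share, 12.2% to 73.8%, held the share of IDR regions at all genes, 16.2%. CACGCG was at 3.66% beside 4.10%, CTGCGTC at 6.10% beside 5.02%, AGGTCA at 7.32% beside 5.28%, and TCACGTGA at none of 82 (upper limit 4.40%) beside 0.491%. A match in letters is a description, and it does not show which protein was bound.

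Some summits in these windows lay nearer to another gene. Of the 82 regions, 62 had the lipid gene as the nearest 5′ end and 20 another gene, and for IDR regions it was 7 and 3. No region fell in the windows of 2 lipid genes. By annotation 61 summits were intergenic, 13 in exons and 8 in introns. At 66 regions the summit lay inside a replicate 2 region, at 29 inside a replicate 1 region, at 24 in both and at 11 in neither. The replicate 1 list is the shorter. The nearest-gene, annotation and overlap counts were not made for regions of all genes, so none can be called particular to lipid genes.

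The other genes of lipid metabolism were taken from 7 lists of 95 genes, of which 94 were found in the annotation. The lists were drawn up with earlier results of these data known, so their shares are a description and no independent support. Of the 94 genes, 12 had an IDR summit (12.8%, 6.77 to 21.2, beside 3.57% of all genes) and 74 a pooled summit (78.7%, 69.1 to 86.5, beside 53.6%). Those with an IDR summit were 1 of 5 genes of fat mobilisation, 3 of 21 of later β-oxidation and related acyl-CoA breakdown, 1 of 6 of the carnitine shuttle, 3 of 12 of storage and phospholipid synthesis and 4 of 21 regulators. None of 14 genes of fatty acid synthase and elongation and none of 15 fatty acid binding and yolk genes had one, although 9 and 10 of them had a pooled summit.

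On the breakdown side, atgl-1, the main triglyceride lipase gene, had a pooled signal of 117 (rank 50), with 21.9 in replicate 1 and 95.4 in replicate 2, close to the values at lipl-2. The propionate breakdown genes alh-8 and hphd-1 had 98.6 and 42.5. At alh-8 the replicates gave 21.5 and 77.4, while hphd-1 had 41.3 in replicate 2 and no region in replicate 1. The isovaleryl-CoA dehydrogenase gene ivd-1, of leucine breakdown, had 27.4, with 10.3 and 15.1 in the replicates. The last 3 are the genes counted above under β-oxidation and related breakdown. The regions of atgl-1, alh-8, hphd-1 and ivd-1 each held CACGTG. The carnitine palmitoyltransferase gene cpt-4 had 26.8, with no region in replicate 1, 22.6 in replicate 2 and no CACGTG.

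On the storage side, the phospholipid synthesis gene cept-2 had 33.8, the lipin gene lpin-1 27.9 and the seipin gene seip-1 27.0, each listed in both replicates and none with CACGTG. This 0 of 3 also stood beside 28.6% of IDR regions in windows of any gene. The difference between the breakdown and storage sides was not tested. Among regulators, nhr-68 had 61.0 and nhr-10 30.4, both receptors that control propionate breakdown. The signal was 50.2 at nhr-49, the receptor that controls acs-2, and 42.9 at daf-16, the FOXO gene of the insulin pathway. CACGTG was present at nhr-68, in a region nearer to H12C20.7, and at nhr-49, and absent from the other two.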

How the data were processed

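ChIP-seq region lists of 2 biological replicates of 1 group were analysed. Per the deposited file descriptions, the authors called each replicate list from the alignments of that replicate and a control, the pooled list from the combined replicates with the control, and the IDR list from those 3 lists. Not given in the sources used here were aligner, caller, thresholds, IDR cutoff and read depth. The value deposited for each region was the caller's signal, a score of unstated scale, used here as deposited and only within a list. Lists of build ce11 were used, and those of ce10 were not, since no coordinate was converted.

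Genes, 5′ ends and exons came from the WBcel235 annotation (Ensembl release 115), and sequence from the WBcel235 genome. Coordinates are 1-based. A summit counted for every gene whose window held it, 2000 bp upstream to 200 bp downstream. A region was given a replicate value where a region of that replicate held its summit, and a gene's highest replicate value was taken over its window. Motifs (8 in all) were searched within 100 bp of summits and in flanks centred 500 bp away. Intervals are exact Clopper-Pearson 95% intervals and cover counting error over genes or regions only. With 1 group no test was made, and the labels do not say whether the biological replicates were separate cultures.

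The genes, the classes and the pathway lists were chosen with earlier results of these data known. Named genes were sbp-1, genes with an IDR summit, the 12 other genes of highest pooled signal, the highest of each family, genes with CACGTG at an IDR region or one of the 5000 highest pooled regions, pathway genes with an IDR summit, and nearest genes where different. Other genes named were chosen after their values were seen. Alternatives were the upstream and downstream reach, transcript 5′ ends, nearest-gene assignment, stricter thresholds, the motif search width, single replicates and the placing of acs- genes. The counting steps were tested on simulated regions. Calculations used Python 3.11.15 with scipy 1.17.1, pandas 2.3.3 and numpy 2.4.6. Plots were made with matplotlib 3.10.9.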

Additional observations from a re-analysis of the deposited data

How the results depend on the processing

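Of the 71 lipid genes, 10 had an IDR summit, and the upstream reach of the window moved this count most. It was 3 with 1000 bp upstream (2.52% of all genes), 11 with 5000 bp (6.04%), 10 with 500 bp downstream (3.65%), 11 over any transcript 5′ end (4.13%), 7 with the nearest gene alone (2.55%) and 6 in the IDR regions above the list's median signal (1.79%). With 1 replicate left out it ranged from 9 (3.42%) to 10 (3.45%), not always over the same genes. Synthesis genes had 3, which became 1 with 1000 bp, 1 above that median and 7 with acs- genes included, and breakdown genes had 3, which became 1 with 1000 bp, 1 with the nearest gene alone and 7 with acs- genes included. Lipid genes with a pooled summit (54) fell to 26 among the 5000 highest regions (14.3% of all genes). With 1 replicate left out they ranged from 35 (32.8%) to 54 (53.8%), and with 5000 bp upstream they were 64 of 71 beside 77.7% of all genes. The synthesis count (20) was 13 with the nearest gene alone (40.2% of all genes), 10 among the 5000 highest, 37 of 43 with acs- genes and 13 to 17 with 1 replicate left out. The breakdown count (17) was 8, 34 of 50 and 10 to 21 in the last 3 of these settings. Shares of all genes in these 3 settings were 14.3%, 53.6% and 32.8% to 53.8%. The share of regions with CACGTG stayed between 4.88% and 16.1%, and that of IDR regions was 28.6% with the nearest gene alone, against 50%. Among 23 named genes, the highest pooled signal kept its value in 10 with 1000 bp upstream, 20 with 5000 bp and 15 with the nearest gene alone. The causes were not tested, beyond what shorter lists and windows remove by construction. No paired analysis was possible because there was 1 group of samples. Scores without stated depth limit comparison between replicates.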

Other observations

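By chromosome the counts of lipid genes with an IDR summit ran from 0 to 3. On chromosome X, 3 of 10 lipid genes had an IDR summit (acl-1, acl-4 and acdh-10), on II 3 of 9 (acdh-9, acs-6 and acs-11), on V 2 of 21 (lipl-2 and acs-2), on III 1 of 7 (acs-4) and on IV 1 of 12 (fat-1). On chromosome I none of 12 had one, and 4 of 12 had a pooled summit, and the 12 include the row of acox-1.1 to acox-1.4. Over all genes an IDR summit was found at 144 of 2731 on X, 107 of 3449 on II, 111 of 4994 on V, 137 of 2640 on III, 99 of 3281 on IV and 116 of 2878 on I. The counts are small and were not tested.

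The lists did not always nest. Of the 71 lipid genes, 29 had a summit in the pooled list and in both replicate lists, 4 in the pooled list and neither replicate list (among them sbp-1), 9 in a replicate list and not the pooled list, and 8 in no list. In the last set were lipl-1, acox-1.2, acox-1.4, acdh-8, acs-10, acs-18, acs-24 and acl-5. The same overlaps were not counted over all genes, so they cannot be called particular to lipid genes. For 17 of the genes with a pooled summit, the region of highest signal was nearer to the 5′ end of another gene, a count not made over all genes.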
